A study of Mus musculus with 8 samples.

Results

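MiR-126a, an endothelial microRNA (miRNA), was followed through both arms of its hairpin, mmu-miR-126a-3p and mmu-miR-126a-5p (below without the species prefix), in obstructed and sham-operated mouse kidneys. All array features annotated to either arm were taken, which gave 2 of the 1881 mouse miRNAs and 4 of the 4415 mouse probes on the array. Whole kidneys came from male C57BL/6 mice aged 8 weeks, and the strain, sex and age were the same in both groups. The UUO group had a ureter tied on 1 side (unilateral ureteral obstruction), and its kidney tissue was taken 7 days later. The Sham group had sham surgery with the same interval. Each group had 4 samples, UUO 1 to 4 and Sham 1, 2, 3 and 8, and each sample was hybridized to 1 Agilent 1-colour array. The labels do not say that samples came from separate mice, so the p-values measure the spread between these samples. Whole tissue mixes all kidney cell types, and fewer endothelial cells cannot be told apart from less miR-126a per cell.

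MiR-126a is made from an intron of Egfl7, which encodes a protein secreted by endothelial cells, and it is the miRNA most often used as a mark of those cells. Its 3p arm is known to lower Spred1 and Pik3r2, inhibitors of vascular endothelial growth factor signalling, and the adhesion molecule VCAM-1. The 5p arm is known to lower Dlk1 and so to favour endothelial proliferation. Blood platelets and some blood progenitors also carry miR-126. A miRNA array holds no other defining endothelial gene, so the name "endothelial" rests on the known expression of miR-126a and could not be checked in these data.

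The sequences show what each probe can read. RefSeq (GRCm38.p6) places the 73-base Mir126a hairpin at chr2:26591357-26591429 on the plus strand, inside Egfl7 at chr2:26581083-26592682. The opposite strand of the same stretch is annotated as a second hairpin, Mir126b, at chr2:26591363-26591420. Mature sequences are given 5′ to 3′ with the seed, bases 2 to 8, in capitals, because the seed sets which transcripts are bound.
miR-126a-3p (chr2:26591402-26591423, plus strand): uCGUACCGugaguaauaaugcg
miR-126b-5p (chr2:26591399-26591420, minus strand): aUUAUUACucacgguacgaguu
miR-126b-3p (chr2:26591363-26591385, minus strand): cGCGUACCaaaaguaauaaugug
Each of these seeds belonged to 1 mature miRNA of the RefSeq table, so the 3 do not share a seed. The 2 probes of each arm differ by 1 base at the 3′ end, shown as a capital in the longer probe.
miR-126a-3p probe of 19 bases: cgcattattactcacggtA
miR-126a-3p probe of 18 bases: cgcattattactcacggt
miR-126a-5p probe of 21 bases: cgcgtaccaaaagtaataatG
miR-126a-5p probe of 20 bases: cgcgtaccaaaagtaataat
The 3p probes pair with bases 4 to 22 and 5 to 22 of miR-126a-3p. The 5p probes are identical to stretches of 21 and 20 bases of miR-126b-3p, the product of the opposite strand. The RefSeq table used held no mature sequence of miR-126a-5p, so the pairing of its probes is not given. The file headers name build mm9, yet both listed 3p probe positions lie inside the GRCm38 position of the mature miRNA. Only 58 of 1303 probes compared did so, and the 3p probes are thus exceptions. Coordinates are given from RefSeq only.

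Both arms were well measured on every array. Each probe had 15 spots, of which 13 to 15 were kept, and every spot of the 4 probes was well above background on all 8 arrays. The 8 arrays lay on 1 slide, UUO in 1 row and Sham in the other, so slide row and group cannot be told apart. Correlations between arrays over all tested miRNAs ran from 0.994 to 0.998 within UUO, from 0.991 to 0.999 within Sham and from 0.948 to 0.964 between the groups. Between 740 and 800 probes were detected on the UUO arrays and between 720 and 754 on the Sham arrays.

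Before any scaling between arrays, no difference in miR-126a-3p was detected between obstructed and sham kidneys. Its 19-base probe read 5446, 5137, 5278 and 4906 intensity units in UUO 1 to 4, against 5103, 4853, 4799 and 5193 in Sham 1, 2, 3 and 8. The groups overlapped, with means of 5192 ± 229 in UUO and 4987 ± 191 in Sham (SD, n = 4 each; exact permutation p = 0.2, 2-sided). The 18-base probe read 4421, 4178, 4263 and 3956 in UUO, against 4046, 3893, 3827 and 4107 in Sham, again with overlap (exact permutation p = 0.114). In both probes UUO 1 was the brightest array. Spots of these probes varied within an array by 0.925 to 4.23% (coefficient of variation).

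The 5p arm gave dimmer spots, which says nothing about its amount relative to the 3p arm because probes differ in efficiency. Its 21-base probe read 271, 250, 249 and 229 in UUO, against 257, 253, 244 and 263 in Sham. The highest and the lowest array were both UUO arrays (exact permutation p = 0.686). Its 20-base probe read 70.4, 66.7, 61.8 and 58.8 in UUO, against 61.6, 60.1, 56.7 and 61.2 in Sham, and the groups overlapped (exact permutation p = 0.2). This dim probe was also the noisiest of the 4, with 5.70 to 12.0% variation among the spots of an array.

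**Figure D1:**
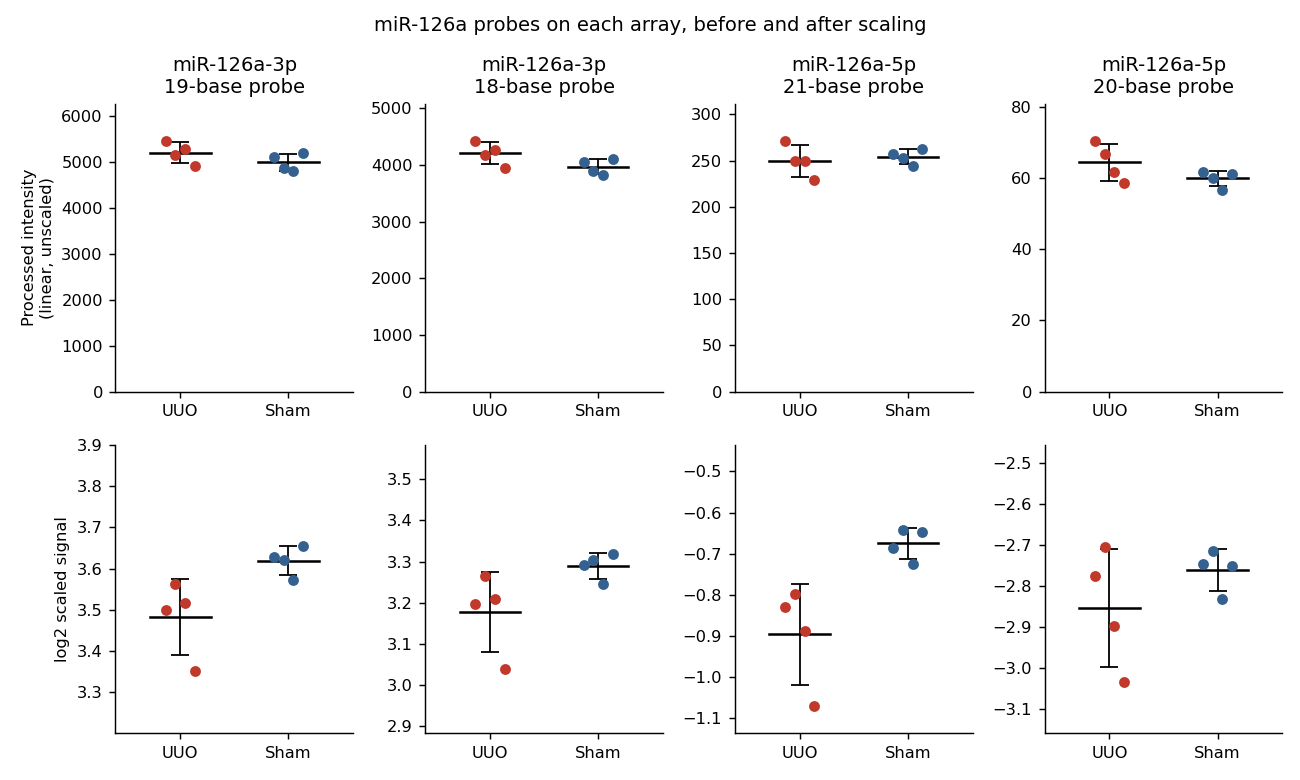
Signal of each miR-126a probe on each array, with group mean and SD (n = 4). The upper panels give processed intensity on a linear axis from 0, where UUO and Sham overlap for all 4 probes. The lower panels give log2 signal after division by each array's 75th percentile, each on an axis of the same width, where the 19-base 3p probe and the 21-base 5p probe are lower on all 4 UUO arrays.

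To compare arrays, values were scaled to the 75th percentile of the array, taken over 623 probes that every array detected. That percentile was 482, 435, 461 and 481 in UUO, against 413, 394, 404 and 412 in Sham. It was higher on every UUO array, so the scaling lowered UUO values relative to Sham values. Each arm was then represented by its brighter probe, and limma was fitted over the 408 miRNAs detected on at least 4 arrays. A miRNA was called when its Benjamini-Hochberg adjusted p was under 0.05.

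On this scale both arms were slightly lower in obstructed kidneys, and only the 5p arm was called. MiR-126a-3p had log2 scaled signals of 3.50, 3.56, 3.52 and 3.35 in UUO, against 3.63, 3.62, 3.57 and 3.66 in Sham. All UUO values lay below all Sham values, and UUO 4 was the lowest. The log2 fold change was -0.14 ± 0.06 (SE, n = 4 each), a difference of -9.05%, with a 95% confidence interval of -0.27 to -0.01 and a limma adjusted p of 0.0578. MiR-126a-5p had log2 scaled signals of -0.83, -0.80, -0.89 and -1.07 in UUO, against -0.69, -0.64, -0.73 and -0.65 in Sham. These groups did not overlap either, with UUO 4 again the lowest. The 5p arm fell by 0.22 ± 0.07 on the log2 scale (SE, n = 4 each), a difference of -14.2%, with an interval of -0.37 to -0.07 and a limma adjusted p of 0.0169.

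Both changes were small beside those of other miRNAs in the same tissue. Of the 408 miRNAs tested, 67.4% were called, 39.7% higher and 27.7% lower in UUO, so a call of 1 of the 2 arms is no more than the background. In 61.3% of the miRNAs the groups did not overlap, and in 26.2% they did not overlap with UUO lower. The size of the change was smaller than that of miR-126a-3p in 88 of the 408 miRNAs (21.6%) and smaller than that of miR-126a-5p in 126 (30.9%). The median size over all was 0.41 and the median signed change 0.06, both on the log2 scale.

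The second probe of each arm did not give a call. Among 771 probes tested together with limma, of which 68.4% were called, the 18-base 3p probe had a log2 fold change of -0.11 (adjusted p = 0.110) and the 20-base 5p probe one of -0.092 (adjusted p = 0.304). The brighter probes had adjusted p-values of 0.0556 (3p) and 0.0163 (5p) in that fit. The 20-base 5p probe read log2 -2.78, -2.71, -2.90 and -3.03 in UUO, against -2.75, -2.71, -2.83 and -2.75 in Sham. Its groups overlapped, unlike those of the 21-base probe for the same arm.

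The direction for miR-126a-3p depended on the scaling. The log2 change was -0.46 with the total intensity per miRNA and -0.42 in the authors' deposited table of ratios, where it was called lower. It was 0.14 with quantile normalization, 0.14 with normexp and quantile and 0.15 with scaling to non-mouse control features, where it was called higher. No scaling gave 0.058, which was not called. The 75th percentile over all mouse probes gave -0.00076 and the total signal -0.0010, with adjusted p-values of 0.994 and 0.986 from limma. The median change of all tested miRNAs moved too, between -0.23 and 0.34. The share of calls that were higher in UUO, 58.9% on the scale used here, ran from 33.4 to 79.1%. Total intensity and the deposited table were tested over 499 miRNAs by the software's detection flag, and the other scalings over 408.

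Set against that median, the values for miR-126a-3p split by kind of scaling. Its log2 change minus the median change was -0.23 to -0.19 under the scalings that divide each array by 1 factor, and 0.17 and 0.16 under the 2 that use quantiles. For miR-126a-5p that difference was negative under all 9 scalings, from -0.55 to -0.28. Dividing the same values by another factor shifts every miRNA alike. Those scalings therefore give nearly the same difference and are not separate results. The log2 change of the 5p arm itself ran from -0.58 to 0.062, and only scaling to the control features gave a value above 0. Its limma adjusted p ran from 0.000200 to 0.715 over the 9 scalings.

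**Figure D2:**
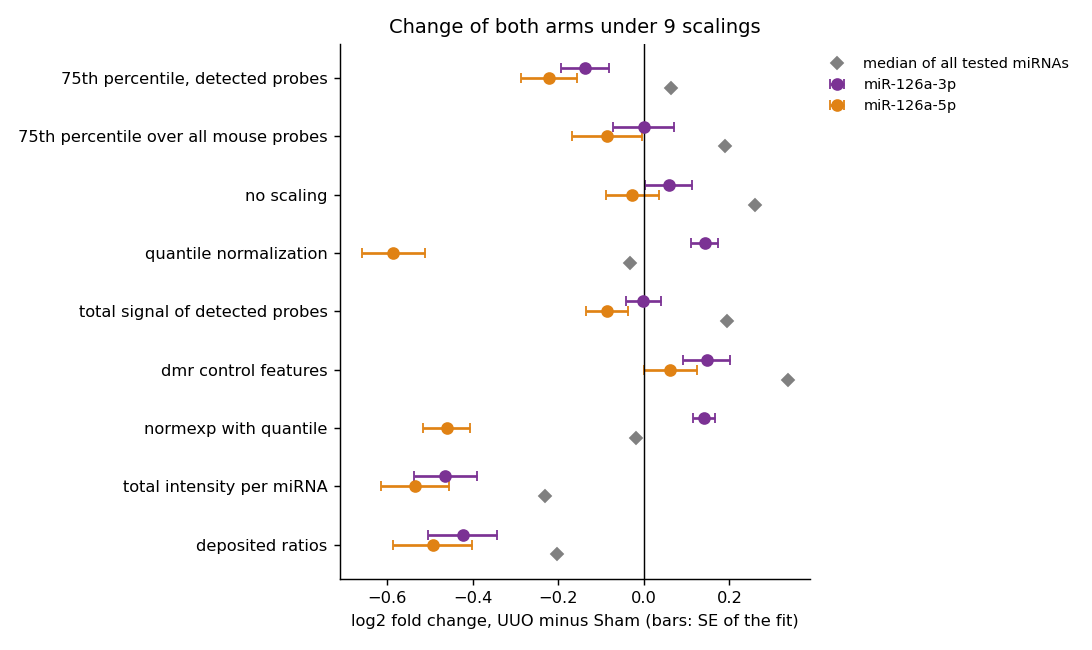
Log2 fold change (UUO minus Sham) of miR-126a-3p and miR-126a-5p with the SE of the limma fit under 9 scalings, beside the median change of all tested miRNAs. MiR-126a-3p lies between -0.46 and 0.15 and crosses 0, while miR-126a-5p lies above 0 only with the dmr control features, at 0.062.

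In the authors' deposited table both arms were lower on every UUO array. There miR-126a-3p had ratios of 0.859, 0.921, 0.897 and 0.742 in UUO, against 1.09, 1.19, 1.18 and 1.12 in Sham. The 5p arm had ratios of 0.864, 0.910, 0.850 and 0.701 in UUO, against 1.10, 1.24, 1.19 and 1.13 in Sham, also in the authors' deposited table. The 1300 miRNAs that the software detected on no array, miR-126b-3p and miR-126b-5p among them, carried in the authors' deposited table the values 0.809, 0.903, 0.867 and 0.766 in UUO, against 1.11, 1.26, 1.28 and 1.11 in Sham. So miRNAs with no measured signal were also lower on every UUO array in the authors' deposited table. How its array factor was set is not stated in the labels or headers.

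A pair of measures needs no scaling factor, the rank of an arm on its own array and the ratio of its probe to another probe on that array. Ranks set probes of unlike efficiency side by side, so only their difference between the groups is read. Among the 335 miRNAs detected on all arrays, with 1 the brightest, miR-126a-3p ranked 13, 12, 12 and 13 in UUO, against 17, 17, 17 and 18 in Sham. It stood nearer the top on every UUO array, although its scaled signal was lower there, with a difference in mean rank of -4.75 places (exact permutation p = 0.0286, the smallest that 4 against 4 can give). Such separation was common, since the groups did not overlap in rank in 62.1% of the 335 miRNAs, and in 26.3% with UUO nearer the top. Between the mean ranks of the groups it passed 5 miRNAs, miR-30c-5p, miR-30a-5p, miR-29b-3p, let-7g-5p and miR-22-3p, and 0 passed it. They are named because the count is small, after their values were seen.

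The 5p arm moved the other way in rank. By its 21-base probe it ranked 120, 115, 118 and 126 in UUO, against 105, 105, 104 and 104 in Sham. It stood farther from the top on every UUO array, with a difference in mean rank of 15.25 places (exact permutation p = 0.0286). No rank was taken with the 20-base probe. Of the 335 miRNAs, 35.8% were likewise farther from the top on every UUO array. Between the mean ranks, 19 miRNAs that stood below it in Sham stood above it in UUO. They were of mixed kinds. The leukocyte miRNAs miR-223-3p and miR-342-3p and the fibroblast miRNA miR-214-3p were among them. So were miR-7042-5p, miR-6937-5p and miR-5128, which are on none of the lists below. The leukocyte miRNAs miR-142a-5p and miR-150-5p were not among them. In the other direction 3 miRNAs, miR-30e-3p, miR-185-5p and miR-218-5p, dropped below it, and these are likewise named after their values were seen.

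The ratio between the arms depended on which 5p probe was read. With the brighter probe of each arm, the log2 ratio of 3p over 5p was 4.33, 4.36, 4.40 and 4.42 in UUO, against 4.31, 4.26, 4.30 and 4.30 in Sham. The linear ratio was 20.1, 20.5, 21.2 and 21.4 in UUO, against 19.9, 19.2, 19.6 and 19.7 in Sham, and its level mixes the efficiencies of both probes. Every UUO array was above every Sham array, by 0.085 on the log2 scale or 1.06-fold (exact permutation p = 0.0286). In 45.9% of the 37 hairpins with both arms detected on all arrays the groups did not overlap, and the size of the miR-126a difference ranked 26th of the 37.

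With the 20-base 5p probe no difference was detected. The log2 ratio over that probe differed by -0.044 with the 19-base 3p probe (exact permutation p = 0.343) and by -0.020 with the 18-base 3p probe (exact permutation p = 0.571), and the groups overlapped. The 18-base 3p probe over the 21-base 5p probe gave 0.11 (exact permutation p = 0.0286). With the probes of each arm averaged, the difference was 0.033 (exact permutation p = 0.343).

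Probes for the same arm also shifted against each other. The log2 ratio of the 20-base over the 21-base 5p probe was -1.95, -1.91, -2.01 and -1.96 in UUO, against -2.06, -2.07, -2.11 and -2.10 in Sham. It was higher on every UUO array, by 0.13 (exact permutation p = 0.0286), which is more than the 0.085 between the arms. The ratio of the 18-base over the 19-base 3p probe differed by 0.025, also without overlap (exact permutation p = 0.0286). Among 324 such pairs of probes for 1 miRNA, the groups did not overlap in 24.4%. The difference in arm ratio is smaller than that between the 2 probes of the 5p arm.

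**Figure D3:**
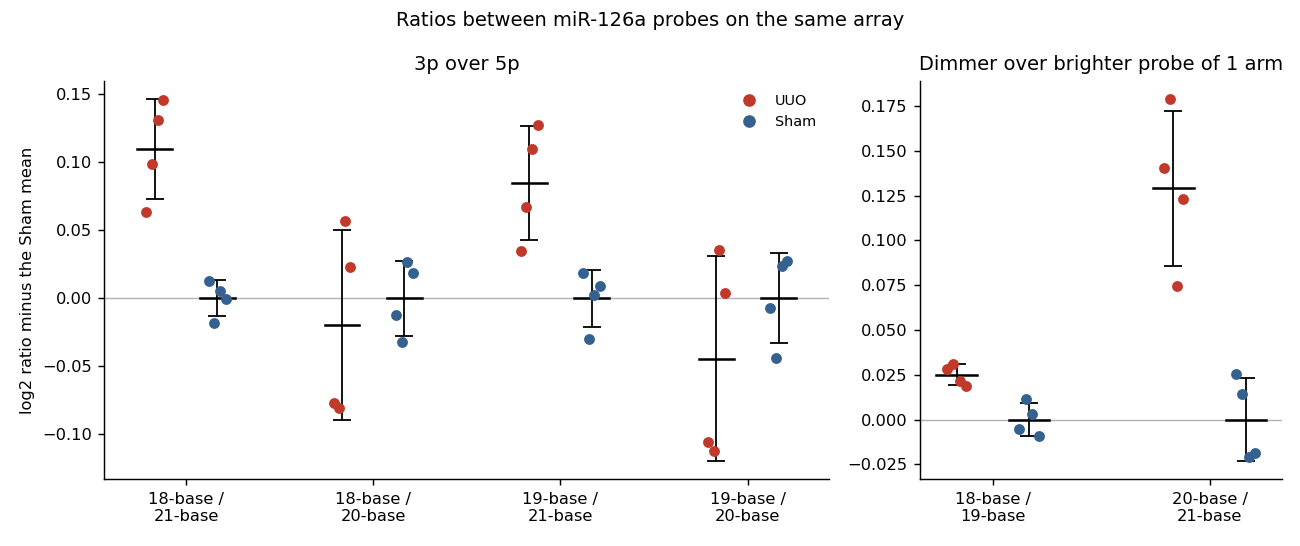
Log2 ratios between miR-126a probes on the same array, with the Sham mean of each ratio set to 0, and group mean and SD (n = 4). UUO lies above Sham in both ratios that use the 21-base 5p probe (0.11 and 0.085) and overlaps it in both that use the 20-base probe, and the 2 probes of the 5p arm differ by 0.13.

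The opposite strand gave no detectable signal. MiR-126b-3p and miR-126b-5p had 4 probes, and 0% of their spots were well above background on any of the 8 arrays. Their mean intensities lay between -2.57 and 0.357 units, around the subtracted background. The reverse complement of miR-126a-3p shares a run of 19 of its 22 bases with miR-126b-5p. The miR-126b probes stayed at background on arrays where the miR-126a-3p probes read 3827 to 5446 units. The miR-126b-5p probes hold runs of 12 and 13 bases identical to miR-126a-3p. They cannot pair with it there, so their background reading does not test whether a wrong probe reads it.

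Against other vascular and blood miRNAs on the same arrays, the ratio of miR-126a-3p passed the threshold for 7 of the 10 it was set against. Over all 334 other miRNAs detected on every array, the groups did not overlap in 66.5% of such ratios, so 7 of 10 is near the background, and the 10 were chosen with their own changes known. A ratio within an array keeps its value under any scaling by 1 factor, and the p-values here are exact permutation p-values with Benjamini-Hochberg adjustment over the 10. Relative to miR-223-3p of myeloid cells, miR-126a-3p differed by -2.44 on the log2 scale (adjusted exact p = 0.0408), with log2 ratios of 2.36 to 2.48 in UUO and 4.77 to 4.90 in Sham. Relative to miR-142a-3p, which marks all blood lineages, it differed by -2.42, and relative to miR-199a-3p of fibroblasts by -1.93 (adjusted exact p = 0.0408 each). Relative to miR-192-5p of tubule epithelium it was higher by 1.00, with log2 ratios of 1.24 to 1.49 in UUO and 0.186 to 0.536 in Sham (adjusted exact p = 0.0408).

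For vascular miRNAs and miR-451a the differences lay between -0.63 and 0.70. Relative to miR-92a-3p, which restrains vessel growth, miR-126a-3p differed by -0.63 (adjusted exact p = 0.0408). It was also lower relative to miR-143-3p of smooth muscle, with a difference of -0.38, and to miR-222-3p, an inhibitor of endothelial growth, with one of -0.37 (adjusted exact p = 0.0408 each). Its ratio to miR-145a-5p, the cluster partner of miR-143, ran from 4.65 to 4.75 in UUO and from 4.64 to 4.76 in Sham, a difference of 0.015 (adjusted exact p = 0.8). Its ratio to miR-221-3p differed by -0.063 (adjusted exact p = 0.127), and that to miR-451a of red cells by 0.70 with overlapping groups (adjusted exact p = 0.0714). These last 3 did not pass the threshold, which does not show that they changed alike.

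**Figure D4:**
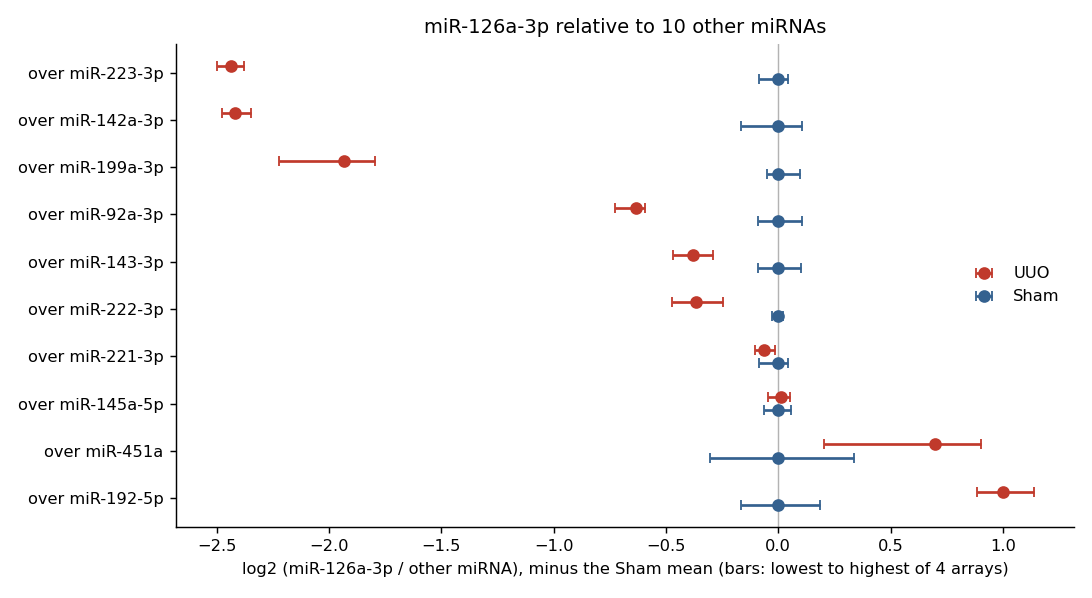
Log2 ratio of miR-126a-3p to each of 10 other miRNAs on the same array, with the Sham mean set to 0. Points are group means and bars run from the lowest to the highest of 4 arrays. UUO and Sham overlap for miR-221-3p, miR-145a-5p and miR-451a, while the ratios to miR-223-3p and miR-142a-3p lie more than 2 log2 units lower in UUO.

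MiRNAs known to act in blood vessels did not move as 1 group. The lists used here and below were chosen with earlier results of these data known. Of 34 listed, 33 were tested, and 17 were called higher, 6 lower and 10 were not called, with a median log2 change of 0.21, against 39.7% higher, 27.7% lower and a median of 0.06 over all miRNAs tested. Of 17 that promote vessel growth, 8 were called higher and 3 lower, with a median of 0.05. The 4 brightest were let-7f-5p at -0.13, miR-10a-5p at 0.00084 and miR-23a-3p at 0.055, which were not called, and miR-23b-3p, which fell by 0.23 (limma adjusted p = 0.00315). Chosen after their values were seen, miR-132-3p rose by 2.56 (limma adjusted p = 3.07e-08) and miR-378a-3p fell by 0.96 (limma adjusted p = 5.52e-06), the ends of the list's range.

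Of 14 miRNAs that restrain vessel growth, 13 were tested, and 6 were called higher and 3 lower, with a median of 0.04. The shares over all miRNAs tested were 39.7% higher and 27.7% lower. MiR-16-5p rose by 0.50, miR-15a-5p rose by 0.22 and miR-200b-3p fell by 0.34, while miR-24-3p, at 0.039, was not called. All 4 miRNAs that act in endothelial inflammation were called higher, with a median of 1.20. They were miR-155-5p at 1.48, miR-31-5p at 1.53, miR-146a-5p at 0.92, a brake on NF-κB signalling, and miR-181b-5p at 0.26. Leukocytes also make miR-146a and miR-155, and the leukocyte miRNAs described next rose in the same samples; their part in these calls was not tested. Under other scalings the vascular list had 8 to 25 higher calls and 3 to 16 lower calls. Its median turned negative with total intensity (-0.11) and the authors' deposited table (-0.070) and reached 0.50 with control features.

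**Figure D5:**
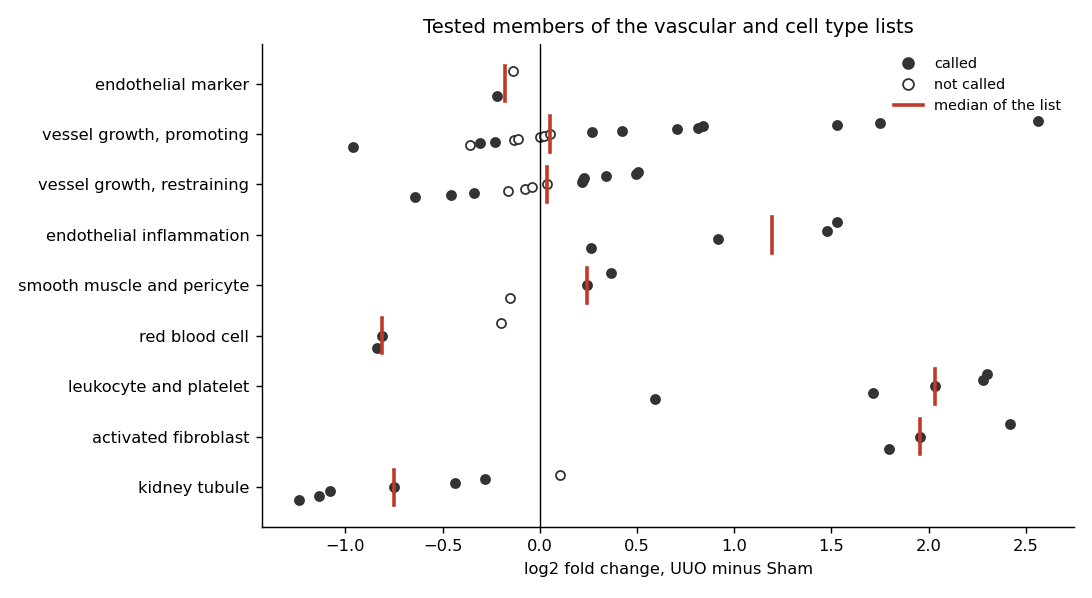
Log2 fold change (UUO minus Sham) of the tested members of the endothelial, vascular and cell type lists. Filled points were called by limma, open points were not, and a red line marks each list's median, which runs from -0.81 for red blood cells to 2.03 for leukocytes and platelets.

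Listed miRNAs of leukocytes, fibroblasts and kidney tubules were also read on the same arrays. Over all miRNAs tested, 39.7% were called higher and 27.7% lower. The lists were chosen with earlier results of these data known, so their counts are a description and no test. All 5 leukocyte and platelet miRNAs, both arms of miR-142a among them, were called higher, with a median of 2.03. Their summed scaled signal was 7.25 to 8.21 in UUO and 1.72 to 1.94 in Sham. MiR-223-3p rose by 2.30 and miR-142a-3p by 2.28. All 3 fibroblast miRNAs were called higher, with a median of 1.95 and a sum of 10.8 to 12.9 in UUO and 2.96 to 3.35 in Sham. They include both arms of miR-199a, and a list of 3 tested is too small to set against the shares over all miRNAs. Of 8 tubule miRNAs, 7 were tested and 6 called lower, with a median of -0.75 and a sum of 28.4 to 34.3 in UUO and 55.1 to 57.8 in Sham. MiR-30a-5p fell by 0.75, miR-30e-5p fell by 1.24, miR-192-5p fell by 1.14 and miR-200a-3p fell by 0.44. The sums here and below add probes of unlike efficiency and weigh the brightest members most, so they are not amounts of a cell type.

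The sum of both miR-126a arms was 10.67 to 12.39 in UUO and 12.49 to 13.24 in Sham on the same scale. It adds probes of unlike efficiency and is mostly the 3p signal, which was not called and whose direction depended on the scaling. Of 4 smooth muscle and pericyte miRNAs, 3 were tested and 2 called higher, with a sum of 2.66 to 3.03 in UUO and 2.27 to 2.67 in Sham. MiR-143-3p rose by 0.24 (limma adjusted p = 0.0191) and miR-145a-5p, at -0.15, was not called. The other call, miR-143-5p, was detected on 4 UUO arrays and 1 Sham array, so it passed the detection filter through UUO. Its Sham values all stood at the floor of the scale (log2 -4.89), and its call is no separate evidence. Of 4 red cell miRNAs, 3 were tested and 2 called lower with overlapping groups, and their sum was 2.12 to 3.84 in UUO and 3.71 to 5.46 in Sham. The shares over all miRNAs tested were 39.7% higher and 27.7% lower, and lists of 3 tested are too small to set against them. MiR-451a fell by 0.84 and miR-144-3p fell by 0.81. Platelets and blood progenitors carry miR-126 too, and the part of these cells, or of the blood left in the tissue, in the miR-126a values was not tested.

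Likeness to each arm was measured over the arrays. Over the 8 arrays, each miRNA centred on its own mean, the nearest of 334 by root mean square difference were let-7f-5p at 0.0178, let-7a-5p at 0.0270, let-7d-5p at 0.0286, miR-3620-3p at 0.0304 and miR-103-3p at 0.0333, against a median of 0.273. The 5p arm was the 11th nearest at 0.0511. The nearest to miR-126a-5p were miR-429-3p at 0.0437, miR-148b-3p at 0.0444, miR-345-5p at 0.0479, miR-712-5p at 0.0510 and miR-126a-3p at 0.0511, against a median of 0.298. All of these share the arrays and the scaling, and likeness of a small change between 8 values is a description only.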

How the data were processed

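MiRNA was measured in 8 whole kidney samples, 4 UUO and 4 Sham. Per the file headers, the authors made the spot intensity values with Agilent Feature Extraction 10.7.3.1, subtracting a spatial background and applying no multiplicative detrending. The files also hold software flags and a total intensity per miRNA. The deposited series table holds ratio values, each the total intensity times 1 factor per array over that miRNA's median. Here, outlier spots (2.64 to 2.95%) and controls were left out, spots averaged, and a probe was detected when over 50% of its spots were well above background. Values were scaled to each array's 75th percentile over 623 probes that every array detected, raised to a floor (log2 -4.89) and log2 was taken with no pseudocount. The probe with the highest mean stood for a miRNA. Limma 3.58.1 (R 4.3.3) compared UUO with Sham with Benjamini-Hochberg adjustment; exact permutation tests (scipy 1.17.1) used all 70 splits and were 2-sided. The fit was also run on simulated data with independent values and no scaling between arrays. That run cannot bear on calls that depend on the scaling. The number of arrays limits the precision.

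Members, lists and tests were chosen with earlier results of these data known. Named miRNAs are both arms, miR-126b, the 10 of the ratio test, the 5 nearest to each arm and up to 4 of the brightest tested members of each list; exceptions are marked. The numbers 1, 2 and 3 recur in both groups, but deviations of same-numbered samples correlated at -0.00, 0.12 and -0.30, so they were not treated as pairs. Alternatives covered scaling, background, floor, filter, spots, probes, replicates and slide column.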

Additional observations from a re-analysis of the deposited data

Results flagged for a closer look

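Of 38 groups of 4 values checked for a sample far from the rest (Dixon's test, which marks about 1 in 20 by chance), 2 were marked, and both were ratios of miR-126a-3p. The log2 ratio to miR-92a-3p was 3.00 in UUO 4, against 3.12 to 3.13 in the other UUO arrays, and the gap was 0.907 of the range. UUO 4 was also the array with the lowest scaled signal of both miR-126a arms. The log2 ratio to miR-451a was 1.72 in UUO 2, against 2.36 to 2.42 in the other UUO arrays, and the gap was 0.914 of the range.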

How the results depend on the processing

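For miR-126a-3p, the change of -0.14 turned to 0.058 without scaling, 0.14 with quantile normalization, 0.14 with normexp and quantile and 0.15 with control features. It became called at -0.46 with total intensity, -0.42 with deposited ratios, -0.14 with the floor doubled (limma adjusted p = 0.0476) and -0.14 with the median over spots (0.0476). Leaving out 1 array gave -0.16 to -0.093, called only without UUO 2 (limma adjusted p = 0.0389).

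The 5p arm lost its call with the percentile over all probes (-0.085), no scaling (-0.027), total signal (-0.086) and the mean over its probes (-0.16, limma adjusted p = 0.0681), and turned to 0.062 with control features. Leaving out 1 array gave -0.25 to -0.16, all called (limma adjusted p = 0.0131 to 0.0455).

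The arm ratio (0.085) turned to -0.044 and -0.020 over the 20-base 5p probe, was 0.033 with probes averaged and 0.73 with quantile normalization, chosen after seeing the data. Leaving out 1 array gave 0.071 to 0.10 (exact permutation p = 0.0286 without a UUO array and 0.0571 without a Sham array), ranks -4.92 to -4.50 (3p) and 13.2 to 16.8 (5p), and 7 to 8 ratio calls.

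Over the 9 scalings, higher calls over all miRNAs ran from 109 to 239, against 162. Lower calls (113 of 408 tested) were 63 of 408 with control features and 158 of 408 with quantile normalization. They were 217 of 499 with total intensity and 207 of 499 with deposited ratios, which use the software's detection flag. Leaving out 1 array gave 98 to 118 lower calls and 139 to 170 higher calls, against 162. Vascular higher calls (17) were 8 with total intensity and 9 with deposited ratios, but 21 without scaling and 25 with control features. Vascular lower calls (6) were 3 without scaling, 10 with quantile, 3 with control features, 11 with normexp and quantile, 16 with total intensity and 16 with deposited ratios. The cause of these changes was not tested.

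With the replicate block over numbers 1, 2 and 3, the 5p change was -0.15 (limma adjusted p = 0.0819), the 3p change -0.080 (limma adjusted p = 0.305), the arm ratio 0.074 and the ranks -4.67 and 13, the last 3 with an exact permutation p of 0.25, the smallest that 3 pairs allow. This fit leaves out UUO 4 and Sham 8.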

Other observations

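The shift between the 2 probes of 1 arm was not particular to miR-126a. This comparison was chosen after seeing the data. Over 324 pairs of probes for the same miRNA, in which the longer probe adds bases to the shorter, the log2 ratio of the shorter to the longer was higher in UUO in 184 (56.8%). The groups did not overlap in 24.4% of the pairs, 54 of them higher and 25 lower in UUO. The median ratio per array was -0.50 to -0.48 in UUO and -0.52 to -0.51 in Sham, a difference of 0.03 (exact permutation p = 0.0286, the smallest that 4 against 4 can give). From the 10th to the 90th percentile of pairs the difference ran from -0.10 to 0.12. The 5p pair of miR-126a, at 0.13, had the 27th largest positive difference and the 3p pair, at 0.02, the 130th.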
